A study of Mus musculus with 37 samples.

Results

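The 9 genes of the cardiac adrenergic and cAMP pathway, chosen by gene name as a receptor-to-second-messenger series, were followed in the left ventricle of mice that had received adrenaline, alone or as part of resuscitation. The 9 members were the receptors Adrb1, Adra1a and Adra1b, the stimulatory G protein subunit Gnas, the adenylyl cyclases Adcy5 and Adcy6, the receptor kinase Grk5, the arrestin Arrb1 and the phosphodiesterase Pde4d. They were 9 of 56748 genes in the table, and all 9 were among the 16530 genes that passed the filter on low values and were tested.

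Bulk RNA sequencing was done on 37 libraries from C57BL/6J mice of both sexes aged 8 to 10 weeks, each library from 50 mg of left ventricle. The Naive group (5 libraries, no intervention) had isoflurane anaesthesia only, with neither intubation nor injection. The Adr groups (sham in the labels, 4 libraries at each of 4 times, namely 0.5, 1, 3 or 7 days) were anaesthetised, intubated and ventilated, had 40 µL of saline injected into the left ventricle, and 8 min later were given 500 µL of adrenaline at 15 µg/mL. The Arrest groups (4 libraries at the same 4 times) had 40 µL of 0.5 M KCl injected instead, which stopped the heart for 8 min, and were then resuscitated with the same adrenaline and chest compressions. A difference between Adr and Naive therefore covers adrenaline, ventilation and cardiac puncture together, and these cannot be told apart. A single Naive group, with no time of its own, was the reference for all 8 other groups, so that comparisons against it share their controls. The labels do not say whether libraries of a group came from separate mice, and p-values measure only the spread between these libraries.

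Adrenaline acts on the heart through beta receptors, which couple through the stimulatory G protein to adenylyl cyclase, and through alpha1 receptors, which couple to phospholipase C and protein kinase C. cAMP activates protein kinase A and is broken down by phosphodiesterases. Receptor kinases and arrestins uncouple and internalise the stimulated receptors, and lower receptor and cyclase levels are a known feature of hearts under long catecholamine exposure.

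Expression was given as FPKM, fragments per kilobase of gene with a scaling between libraries, so that genes and libraries share the same unit. The level of a gene also depends on the length assigned to it and on how fragments shared with overlapping genes were counted. Fragments assigned to genes ranged from 13.2 M to 30.2 M per library (median 14.9 M, where M stands for mega). The scaling was not to these numbers: the third Adr library at 3 days held 17.17 M, where its FPKM implied a total of 24.14 M. Differences are given as log2 fold changes of FPKM plus a pseudocount of 1 (values of low genes come out smaller than their true change), with the standard error from a limma fit over all 37 libraries. Folds given with an interval are ratios on the same scale. A gene was called changed where its Benjamini-Hochberg adjusted p over all 16530 genes was at most 0.05.

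Before the results, 2 libraries need naming. The third Adr library at 3 days stood apart from the other 36. Mitochondrial genes took 9.36% of its fragments assigned to genes, against 20.8 to 30.9% elsewhere. Its summed cardiomyocyte markers came to 1261 FPKM where the other groups ranged from 3529 to 7807, and its summed macrophage and fibroblast markers reached 524.9 and 548.2 FPKM. It had the lowest value of all 37 libraries for Adrb1, Adra1a, Adra1b, Adcy5, Adcy6 and Pde4d, and the highest for Arrb1. The fourth Naive library had 13475 genes above 0, the fewest of all, against 15398 to 21377 in the rest. Both were kept, and several results that rest on them are given without them too. The 3-day Adr fold changes of Gnas, Grk5, Arrb1 and Pde4d are given with them only. In whole-tissue RNA, fewer cells of a type and less RNA per cell cannot be told apart.

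The promoters of 2 members are shown for the genes to which most of the results refer, the cyclase that was called and the main cardiac beta receptor. Both are the 250 bases before the RefSeq start site on build GRCm38.p6, written 5′ to 3′, and capitals mark the short cAMP response motif TGACG on either strand. Adcy5 lies at chr16:35154614-35154863 on the plus strand and Adrb1 at chr19:56721867-56722116 on the plus strand.
Adcy5: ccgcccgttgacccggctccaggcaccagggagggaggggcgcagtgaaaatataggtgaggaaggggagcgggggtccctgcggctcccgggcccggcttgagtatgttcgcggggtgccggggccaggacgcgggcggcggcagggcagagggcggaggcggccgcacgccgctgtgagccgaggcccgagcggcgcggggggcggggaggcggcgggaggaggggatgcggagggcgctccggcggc
Adrb1: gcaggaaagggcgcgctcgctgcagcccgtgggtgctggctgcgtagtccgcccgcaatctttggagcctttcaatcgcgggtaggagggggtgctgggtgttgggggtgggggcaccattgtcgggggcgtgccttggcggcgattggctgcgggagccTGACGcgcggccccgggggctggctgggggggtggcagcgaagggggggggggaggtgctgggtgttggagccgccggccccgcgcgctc
RefSeq windows were matched for 6 of the 9 members, 10 windows in all: Gnas had 4, Adra1b had 2, and Adcy5, Adrb1, Grk5 and Pde4d had 1 each, while Adra1a, Adcy6 and Arrb1 were not matched. The full palindromic element TGACGTCA, which contains the short motif, occurred in 0 of the 10 windows and in 1.55% of 32851 promoters. The short motif occurred 90 bases before the start in Adrb1 and in 3 of the 4 Gnas windows, whereas 17.8% of all promoters and 25.1% of those of tested genes held it. The Gnas windows that start at 174327499 and 174327518 overlap and hold the same site. Bases shortly after the Adrb1 start site were not found in an annotated transcript of the gene, whereas those of Adcy5 were. A match of letters is a description of the window and shows no binding.

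Across the 9 groups the members differed widely in level. Adcy6 was highest at a mean of 19.6 FPKM over the 37 libraries, followed by Adra1b at 9.86, Grk5 at 9.26 and Adcy5 at 9.07 FPKM. Arrb1 (5.17), Adrb1 (4.46) and Gnas (4.39) formed a middle set, and Pde4d (1.31) and Adra1a (1.30) were lowest. Neighbours within the last 3 sets differed by less than their spread within groups, which was 2.10 FPKM (SD) for Adra1b, 1.76 for Grk5, 1.68 for Adcy5, 1.06 for Arrb1, 1.83 for Adrb1, 1.18 for Gnas, 0.216 for Pde4d and 0.358 for Adra1a. The fewest fragments behind any member value were 25, for Adra1a in the third Adr library at 3 days. The place of Gnas in this order rests on an assigned length of 11387 bases and on the counting of fragments shared with overlapping genes.

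**Figure D1:**
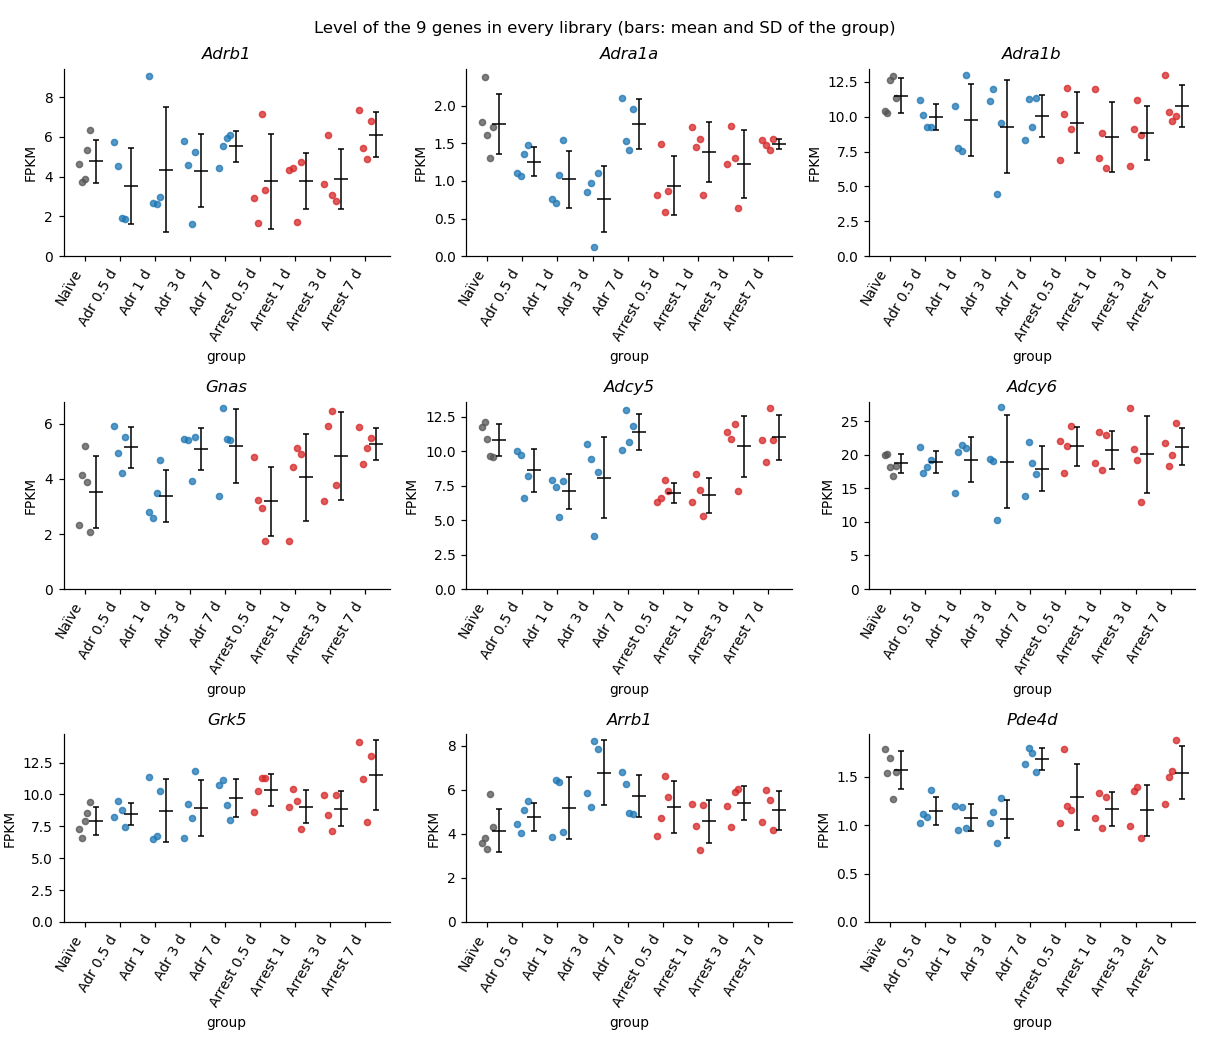
Deposited FPKM of the 9 members in each of the 37 libraries (points) by group, with the group mean and SD as bars, and a linear axis from 0 in each panel. Adcy5 lies below all Naive libraries in every Adr library at 1 day and every Arrest library at 0.5 and 1 day, and overlaps them at 7 days.

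After adrenaline alone, no member was called changed at any time in the main fit, which kept all 37 libraries. Adcy5 at 1 day was called with sample quality weights (limma adjusted p = 0.0473), without the third 3-day Adr library (0.0305) and without both libraries named above (0.0338). With limma the adjusted test called 0 of 9 members at 0.5 days, where 0.188% of all tested genes were called, 0 of 9 at 1 day (0.69% of genes), 0 of 9 at 3 days (0% of genes) and 0 of 9 at 7 days (0% of genes), and limma voom on recovered fragments also called 0 at each time. At an unadjusted p of at most 0.05 there were 2 members at 0.5 days, Gnas higher and Pde4d lower, where 14% of all genes passed. At 1 day there were 3, Adcy5, Adra1a and Pde4d, all lower (14.7% of genes). At 3 days there were 4, with Adcy5, Adra1a and Pde4d lower and Arrb1 higher (13.9% of genes), and at 7 days 2, Arrb1 and Gnas, both higher (6.15% of genes). These shares of 9 genes are shown beside the background and are not a test of the members as a set.

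Complete separation from the Naive libraries was rarer. No member had all of its Adr libraries beyond all Naive libraries at 0.5 days (6.33% of tested genes did) or at 7 days (1.79%), whereas Adcy5 and Pde4d lay below all of them at 1 day (5.25%) and Adra1a at 3 days (2.38%). Without the third Adr library at 3 days and the fourth Naive library, the counts of members were 2, 3, 4 and 1 in order of time, over backgrounds of 10.04, 8.385, 7.078 and 3.848% of genes.

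Over the Arrest groups 1 member was called, Adcy5 at 1 day. The counts were 0 of 9 at 0.5 days (3.21% of all genes called), 1 of 9 at 1 day (7.11%), 0 of 9 at 3 days (0.139%) and 0 of 9 at 7 days (0%), and limma voom gave the same 4 counts. Unadjusted, 3 members passed at 0.5 days, with Adcy5 and Adra1a lower and Grk5 higher (18.2% of genes), 3 at 1 day, Adcy5, Adra1b and Pde4d, all lower (21.7%), 1 at 3 days, Pde4d lower (13.7%), and 2 at 7 days, Gnas and Grk5 higher (5.15%). Adcy5 was the member with no overlap with the Naive libraries at 0.5 days (8.2% of genes) and at 1 day (10.5%), and 0 members separated at 3 days (3.51%) or 7 days (1.69%). Without the 2 libraries named above, 2, 2, 2 and 1 members separated, over backgrounds of 11.63, 14.74, 5.983 and 3.255%.

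Adcy5 encodes one of the main adenylyl cyclases of the heart, the enzyme that makes cAMP, and the table places it at 16:34975247-35126108 on the plus strand (build not named in the sources used here). Of the genes matched to a GRCm38 annotation, only 2.756% had the same start and end there. Gene positions given here can therefore not be set against those of the promoter windows. Its FPKM in the 5 Naive libraries was 11.8, 12.2, 10.9, 9.67 and 9.61, a mean of 10.8 ± 1.17 (SD, n = 5). At 0.5 days after adrenaline alone it was 9.99, 9.73, 6.602 and 8.19, and at 1 day 7.90, 7.40, 5.23 and 7.81. The 1-day libraries all lay below the lowest Naive library, while those at 0.5 days overlapped the Naive range. At 3 days its values were 10.6, 9.43, 3.86 and 8.50, the 3.86 in the library that stood apart, and at 7 days 10.1, 13.02, 10.7 and 11.8, back within or above the Naive range. The log2 fold change against Naive was -0.30, -0.56, -0.45 and 0.07 in order of time (each SE 0.18, adjusted p 0.472, 0.131, 0.266 and 1). Without the library that stood apart, the 3-day value was -0.17 (adjusted p = 0.859). At 7 days the 95% interval was -0.30 to 0.44, so that a loss down to 0.813 of the Naive level or a gain to 1.35 times it fitted the data.

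In the Arrest groups Adcy5 read 6.31, 6.58, 7.93 and 7.11 FPKM at 0.5 days and 6.33, 8.33, 7.22 and 5.29 at 1 day. All 8 libraries lay below the lowest Naive library. The log2 fold change was -0.56 at 0.5 days (SE 0.18, adjusted p = 0.0776, called in 5 of 24 other ways of fitting, with adjusted p from 0.0158 to 0.197) and -0.61 at 1 day (SE 0.18, limma adjusted p = 0.0352), the latter 0.655 times the Naive level with a 95% interval of 0.508 to 0.845. At 3 days the libraries read 11.4, 10.9, 11.99 and 7.14 FPKM and at 7 days 10.8, 9.19, 13.1 and 10.8, both overlapping Naive, with log2 fold changes of -0.08 and 0.02. The 1-day call was kept in 15 of 24 other ways of fitting, with adjusted p between 0.00517 and 0.377 and the log2 fold change between -0.70 and -0.51. It was lost with no filter on low genes, with a trend on gene length removed, with the number in the sample description as a covariate, and without Naive replicate 1, 2 or 3 or Arrest 1-day replicate 1, 3 or 4. The adrenaline-alone value at 1 day passed the threshold in 3 of 24, namely with sample quality weights (adjusted p = 0.0473), without the third 3-day Adr library (0.0305), and with that library and the fourth Naive library both left out (0.0338). Adcy5 was also the member called in the test for any difference among the 9 groups (adjusted p = 0.0356), a call kept in 30 of 50 other fits. In that test 1 of 9 members was called, where 3.9% of all genes were, and 3 of 9 members had an unadjusted p at most 0.05, where 17.4% of genes did.

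Adcy6, the other main cardiac cyclase, at 15:98487854-98507957 on the minus strand, was not called in any group. Its Naive libraries read 20.0, 20.0, 18.2, 16.8 and 18.4 FPKM. The log2 fold changes against Naive lay between -0.07 and 0.03 in the Adr groups, the 3-day value of -0.05 turning to 0.20 without the library that stood apart, and between 0.06 and 0.17 in the Arrest groups (SE 0.19 each). At 1 day after adrenaline alone the 95% interval ran from 0.784 to 1.32 times Naive. The ratio of the 2 cyclases within a library, which cancels any scaling of the library, was 0.523 to 0.606 in Naive (median 0.587). It was 0.285 to 0.380 in Arrest at 0.5 days and 0.231 to 0.407 at 1 day, neither overlapping Naive, and 0.245 to 0.555 in Adr at 1 day, which did overlap. The difference in log2 ratio from Naive was -0.65 in Adr at 1 day (exact permutation test, two-sided p = 0.0159, adjusted 0.152 over 48 ratios), and -0.81 and -0.82 in Arrest at 0.5 and 1 day (exact permutation p = 0.00794 each, the smallest that 4 against 5 libraries allow, adjusted 0.152). By 7 days the Adr ratio was 0.567 to 0.731. No ratio of the 48 passed the exact test after adjustment, 0 in all, while a limma fit of the same ratios called 4, of which 3 were this ratio in Adr at 1 day (adjusted p = 0.0366) and Arrest at 0.5 and 1 day (0.00905 each). With single libraries left out of the limma fit, which was added once the values had been seen, both Arrest calls were kept throughout (adjusted p at most 0.0438). The Adr call was lost without Naive replicate 1, 2, 3 or 4 or Adr 1-day replicate 2, 3 or 4 (adjusted p up to 0.315).

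**Figure D2:**
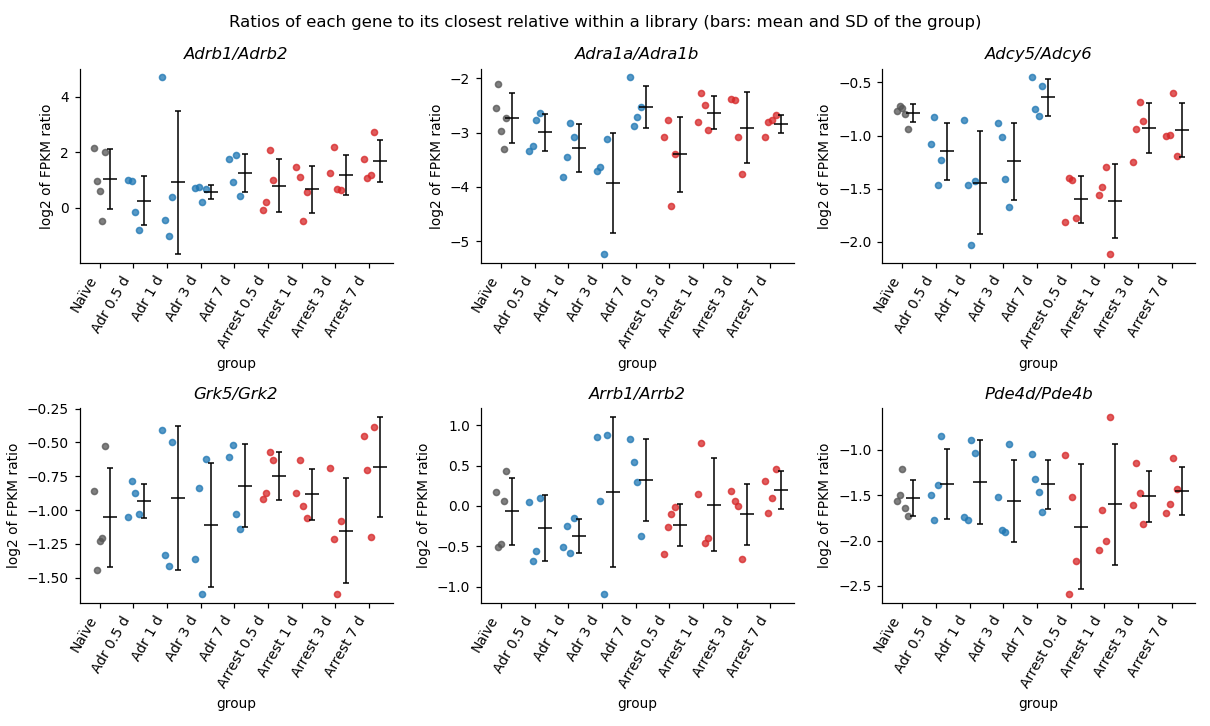
Ratios of related genes within each library (points) by group, as log2 values, with the group mean and SD as bars. As a plain ratio, Adcy5 over Adcy6 lies at 0.523 to 0.606 in the 5 Naive libraries and at 0.231 to 0.407 in the 4 Arrest libraries at 1 day.

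Adrb1, the main beta receptor of heart muscle, at 19:56710631-56721545 on the plus strand, varied most between libraries of one group relative to its level. Its within-group SD was 40.9% of its mean. Naive libraries read 4.63, 3.74, 3.87, 5.33 and 6.35 FPKM. After adrenaline alone it read 5.73, 4.52, 1.94 and 1.89 at 0.5 days, and 9.05, 2.69, 2.64 and 2.97 at 1 day. Both groups held libraries under the Naive range and others within or above it, and at 1 day a single library, the first, was the highest of all 37. In that library the summed atrial markers came to 0.608 FPKM, against 21.8 to 614.5 in the other 3 of the group and 3.03 to 6.93 in Naive, and their part in the Adrb1 value was not tested. At 3 days it read 5.78, 4.57, 1.63 and 5.25 and at 7 days 4.44, 5.56, 5.97 and 6.12 FPKM, the last group inside the Naive range. No difference from Naive was larger than this spread. The log2 fold changes were -0.44, -0.24, -0.19 and 0.18 (SE 0.32). Single libraries set the middle values: the 1-day value was -0.60 without the first 1-day library (adjusted p = 0.381), and the 3-day value turned to 0.12 without the third 3-day library (adjusted p = 0.977). With all libraries the 95% interval at 1 day, 0.537 to 1.33 times Naive, was wide enough to hold either direction. The Arrest estimates were -0.38, -0.31, -0.26 and 0.30.

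Adra1a, an alpha1 receptor of heart muscle, at 14:66872700-67008617 on the plus strand, was one of the lowest members, with Naive values of 1.78, 2.38, 1.60, 1.31 and 1.71 FPKM. It read 1.11, 1.07, 1.36 and 1.48 at 0.5 days after adrenaline, 0.764, 0.7104, 1.07 and 1.54 at 1 day, and 0.848, 0.969, 0.119 and 1.11 at 3 days. At 3 days all 4 libraries lay below Naive, and the lowest value came from the library that stood apart. At 7 days it was 2.11, 1.53, 1.41 and 1.96 FPKM, inside the Naive range. The 3-day log2 fold change of -0.67 (SE 0.17, unadjusted p = 0.00039) missed the threshold after adjustment (adjusted p = 0.129) and was -0.47 without the library that stood apart (adjusted p = 0.515), and at 7 days the estimate was 0.00 with an interval of 0.787 to 1.27 times Naive. In Arrest the log2 fold change was -0.51 at 0.5 days (adjusted p = 0.0873), which passed with sample quality weights (0.0197), without the third Adr library at 3 days (0.0368) and without both libraries that stood apart (0.0277). Its ratio to Adra1b differed from Naive by -1.19 on the log2 scale in Adr at 3 days (exact permutation p = 0.0238, adjusted 0.19), and this was the fourth ratio that the limma fit called (adjusted p = 0.0267). Without the library that stood apart the difference was -0.75 and was not called (limma adjusted p = 0.253), and the call was also lost without Naive replicate 1 or 2.

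Adra1b, the more abundant alpha1 receptor at 11:43665433-43792037 on the minus strand, read 10.4, 10.2, 12.6, 12.9 and 11.4 FPKM in Naive, its highest group mean. The Adr estimates ran from -0.35 at 3 days to -0.18 at 7 days on the log2 scale (SE 0.20), with none past the threshold. Without the third 3-day library, the lowest of all 37 at 4.48 FPKM, the 3-day estimate was -0.07 (adjusted p = 0.968), the nearest to 0 of the 4. In Arrest at 1 day it was 11.96, 7.02, 8.83 and 6.33 FPKM, with a log2 fold change of -0.42 (unadjusted p = 0.0428, adjusted p = 0.211). The Naive mean was thus the highest of 9 for both alpha1 receptors, although every group but Adr at 3 days for Adra1a overlapped it.

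Gnas, the alpha subunit that carries the beta receptor signal to the cyclases, had similar estimates at 7 days in both arms. It read 2.31, 4.16, 5.19, 3.87 and 2.08 FPKM in Naive, and 3.37, 6.57, 5.46 and 5.40 at 7 days after adrenaline. Its log2 fold changes after adrenaline were 0.49, -0.02, 0.47 and 0.48 (SE 0.23), and at 7 days in Arrest 0.51, none past the threshold and all with libraries that overlapped Naive. Its row at 2:174126113-174188537 overlaps 3 other genes on the same strand and 2 on the other, so its value depends on how shared fragments were counted, which the sources used here do not state.

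Grk5, a kinase that phosphorylates stimulated receptors, at 19:60878187-61084406 on the plus strand, had its lowest mean in Naive, at 7.26, 6.59, 7.94, 8.52 and 9.44 FPKM. In Arrest at 7 days it read 14.1, 11.2, 7.82 and 13.045, of which 3 of 4 lay above every Naive library. The log2 fold change was 0.47 (SE 0.16, unadjusted p = 0.00777, adjusted p = 0.854), and after adrenaline alone at 7 days it was 0.26 (adjusted p = 0.902). Estimates in the earlier Adr groups were between 0.09 and 0.13.

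Arrb1, the arrestin that binds phosphorylated receptors, at 7:99184673-99255978 on the plus strand, had its highest group mean at 3 days after adrenaline alone. It read 3.57, 3.80, 3.30, 5.79 and 4.29 FPKM in Naive, 5.83, 5.20, 8.20 and 7.85 at 3 days and 6.81, 6.26, 4.92 and 4.89 at 7 days. The fourth Naive library, at 5.79, was the one that overlapped the later groups, and without it and the third 3-day library both groups lay wholly above Naive. So did Arrest at 3 days. The Arrest means were 1.26, 1.10, 1.30 and 1.22 times the Naive mean in order of time. After adrenaline alone the log2 fold change was 0.59 at 3 days (SE 0.17, unadjusted p = 0.00116, adjusted p = 0.153) and 0.39 at 7 days (unadjusted p = 0.0245, adjusted p = 0.765). The 3-day value includes the library that stood apart, which had the highest Arrb1 of all 37. Summed macrophage markers ranged from 117 to 524.9 FPKM in the 3-day Adr group against 88.5 to 154.8 in Naive, and across the 37 libraries the gene most like Arrb1 was the macrophage lysozyme Lyz2 (Spearman 0.713). Their part in the Arrb1 value was not tested.

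Pde4d, a cAMP-degrading phosphodiesterase, at 13:108586482-110089995 on the plus strand, varied least within groups (16.5% of its mean). It read 1.79, 1.54, 1.69, 1.27 and 1.55 FPKM in Naive, 1.02, 1.11, 1.09 and 1.36 at 0.5 days after adrenaline, 1.20, 0.947, 1.19 and 0.972 at 1 day and 1.02, 1.14, 0.821 and 1.28 at 3 days. The 1-day group lay wholly below Naive, and in the groups at 0.5 and 3 days 3 of 4 libraries did. At 7 days it was 1.64, 1.80, 1.75 and 1.55 FPKM, within the Naive range but for the 1.80. The Arrest means were 0.823, 0.745, 0.736 and 0.984 times the Naive mean in order of time. The log2 fold changes were -0.26, -0.30, -0.31 and 0.07 (SE 0.11), with adjusted p of 0.276, 0.174, 0.21 and 0.995. A ribosomal protein pseudogene, Rps3a3, lies on the same strand within the gene at a mean of 3.33 FPKM.

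**Figure D3:**
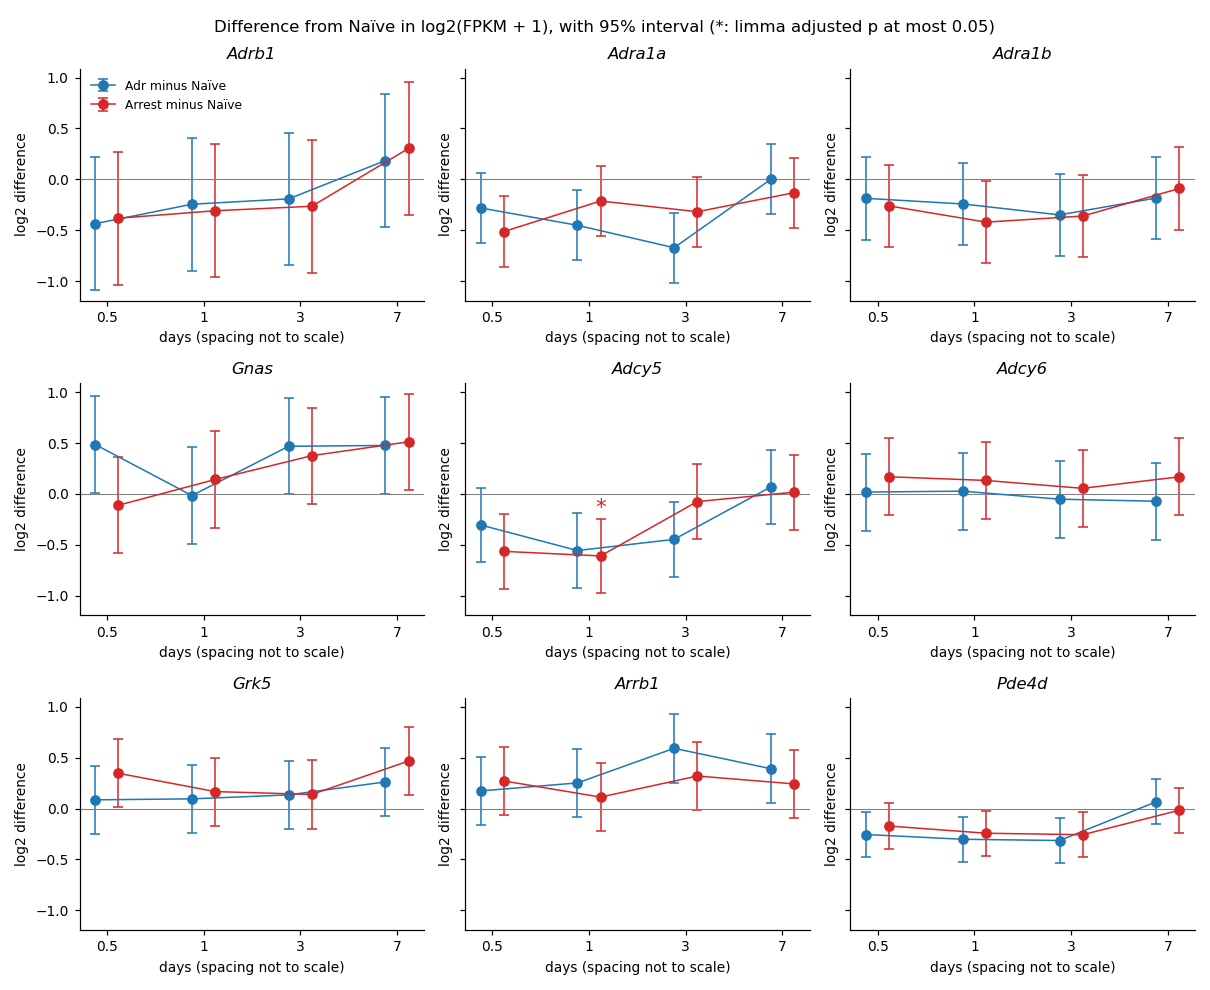
Log2 fold change of each member against Naive at each time with its 95% interval, for Adr and Arrest, from limma on log2(FPKM + 1). At 7 days in Adr the intervals of Adcy5, Pde4d and Adra1a span 0, and Adcy5 in Arrest at 1 day is the called value, at -0.61.

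What remained 7 days after adrenaline was thus examined against a reference with its own spread. The 9 estimates against Naive at 7 days lay between -0.18 (Adra1b) and 0.48 (Gnas), and the 95% intervals of all but Arrb1 and Gnas included 0. Summed atrial markers read 30.4, 6.07, 125.4 and 156.5 FPKM in these Adr libraries, against 3.03 to 6.93 in Naive. In Arrest at 7 days they ran from 1.17 to 200.9 FPKM (median 4.54). Their part in the 7-day values was not tested. A p above the threshold does not show equality: the narrowest interval was that of Pde4d, 0.898 to 1.22 times Naive, and the widest that of Adrb1, 0.723 to 1.79. These are ratios of FPKM plus 1, a scale that narrows the intervals of low genes such as Pde4d. Between 0.5 and 7 days within the Adr arm, 0 of 9 members were called (0.00605% of all genes, limma voom 0), and 1 passed unadjusted, Pde4d at 0.32 higher (8.11% of genes). Within the Arrest arm 0 of 9 were called (0.381% of genes, limma voom 0), and 3 passed unadjusted, Adcy5 at 0.58, Gnas at 0.62 and Adra1a at 0.38 higher (11.5% of genes). The change over this time did not pass the test of a difference between the arms for any member (0 of 9, 0% of genes, limma voom 0). Unadjusted, 0 of 9 passed by limma and 1, Gnas, by limma voom, where 2.53% of genes did by limma.

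Arrest was also set against Adr at the same time, which asks what the arrest and compressions added to adrenaline. No member was called by limma or by limma voom, and the share of all genes called was 0% at the first 3 times and 0.00605% at 7 days. Unadjusted, 1 member passed at 0.5 days, Gnas, which fell by 0.60 on the log2 scale (SE 0.24, unadjusted p = 0.0204, adjusted p = 1), where 3.86% of genes passed, and 0 at the later times (6.59, 5.37 and 2.52% of genes in turn). Adcy5 differed between the arms by -0.26 at the first time, -0.05 on day 1 (95% interval -0.44 to 0.33), then 0.37 and -0.05, the 0.37 at 3 days being 0.10 without the third Adr library of that time. The call in Arrest at 1 day and its absence in Adr at 1 day were therefore not a difference between the arms that a test found.

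Averaged over the 4 times, 0 of 9 members were called in Adr (0.43% of genes) and 0 of 9 in Arrest (2.74%), by limma and by limma voom. Unadjusted, 4 members passed in each arm, Adcy5, Adra1a and Pde4d lower in both, Arrb1 higher in Adr (15.3% of genes) and Grk5 higher in Arrest (18.9% of genes). The 2 arms share the Naive libraries, and the Adr average includes the library that stood apart.

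The rest of the pathway was described with 140 other genes in 11 lists, of which 119 were tested. After adrenaline alone, limma called 0, 2, 0 and 0 in order of time, where 0.188, 0.69, 0 and 0% of all tested genes were called, and limma voom gave the same 4 counts. Unadjusted, 24, 27, 31 and 6 of the 119 passed (20.2, 22.7, 26.1 and 5.04%), where 14, 14.7, 13.9 and 6.15% of all genes did. The 2 called at 1 day belonged to alpha1 signalling and fell: Prkce, a protein kinase C isoform of heart muscle, by 0.56 on the log2 scale (SE 0.13, adjusted p = 0.0421), and Prkca, another isoform of heart muscle, by 0.47 (SE 0.11, adjusted p = 0.0436). Prkce ran from 3.25 to 4 FPKM at 1 day against 4.83 to 6.59 in Naive, and Prkca from 1.30 to 2.22 against 2.25 to 3.14, with no overlap in either. Each call was kept in 11 of 24 other fits (adjusted p up to 0.354 for Prkce and 0.345 for Prkca), limma voom among them, and was lost with the length trend removed. Both were lost without Naive replicate 1, 4 or 5 or Adr 1-day replicate 1, 3 or 4, and Prkce also without Naive replicate 3 or Adr 1-day replicate 2. In the same group the smooth muscle marker Myh11 fell by 1.09 on the log2 scale, 1 of 4 mural markers called. Summed atrial markers ranged from 0.608 to 614.5 FPKM against 3.03 to 6.93 in Naive, with 0 of 3 called. Summed fibroblast markers ranged from 214.3 to 369 FPKM against 161.4 to 225.7, with 0 of 4 called. The part of these markers in the values of this group, Adcy5 among them, was not tested. Averaged over the 4 Adr times limma called 1 gene, Prkce, at -0.48, and limma voom called 2, Akap6 and Prkce.

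In Arrest, 8 of the 119 were called at 0.5 days (2 rose and 6 fell) and 17 on the next day (5 rose and 12 fell), which is 6.72 and 14.3% of them, where 3.21 and 7.11% of all tested genes were called. These shares, like those after adrenaline alone, are shown beside the background and are not a test of the lists. The lists were chosen with earlier results of these data known. At both later times 0 were called by limma and by limma voom (17 and 5 unadjusted by limma, 14.3 and 4.2% of the 119, where 13.7 and 5.15% of all genes passed). Limma voom called 6 and 12 at the 2 earlier times, with Dbh and Pde4a not among them at either, nor Junb at 0.5 days. Prkce and Prkca, the genes called after adrenaline alone, were among those that limma voom called at both of these times in Arrest. By limma, 2 of the 10 tested alpha1 signalling genes were called at 0.5 days and 4 at 1 day (20 and 40%). The immediate early gene Junb rose by 1.64 and 2.10 on the log2 scale at 0.5 and 1 day, and Popdc3, which encodes a cAMP-binding membrane protein, rose by 0.86 and 1.02. The anchor Akap6, which holds protein kinase A at the nuclear envelope, fell by 0.80 and 0.92, and Dbh, which makes noradrenaline in sympathetic nerves, fell by 1.00 and 0.95. Levels of cell type markers in the same groups follow, and their part in these values was not tested. Summed nerve and Schwann markers, a list that holds Dbh itself, ranged from 1.55 to 2.03 FPKM at 0.5 days and 1.05 to 2.67 at 1 day against 2.87 to 4.28 in Naive. Dbh was the 1 of 3 tested that was called. Th was at 0 in 36 of the 37 libraries, all Naive libraries included. Of 4 endothelial markers Kdr fell at 0.5 days and Kdr and Cdh5 at 1 day, while the summed level overlapped Naive. Summed fibroblast markers ran from 243.9 to 318.8 FPKM at 1 day against 161.4 to 225.7 in Naive, with 0 of 4 called. At the later of these times the phosphodiesterases Pde4a, Pde7b and Pde1c fell by 0.72, 0.58 and 0.58, so that 3 of the 13 tested phosphodiesterases were called (23.1%, beside the 7.11% of all genes) and Pde4d, at -0.24, was not among them. The median log2 fold change of the 119 was -0.07 at 1 day in both Adr and Arrest, where the median of all tested genes was 0.04 and 0.03. Among the adrenergic receptors (members included), the protein kinase A substrates of the heart and the other Gs and Gi coupled receptors, limma and limma voom called 0 in every group against Naive. By limma, their highest counts below the unadjusted threshold in any one group were 2 of 6, 4 of 11 and 2 of 9 tested genes. These shares were 33.3, 36.4 and 22.2%, where 13.7 to 21.7% of all genes passed in the groups concerned. Limma voom gave highest counts of 3, 4 and 3.

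**Figure D4:**
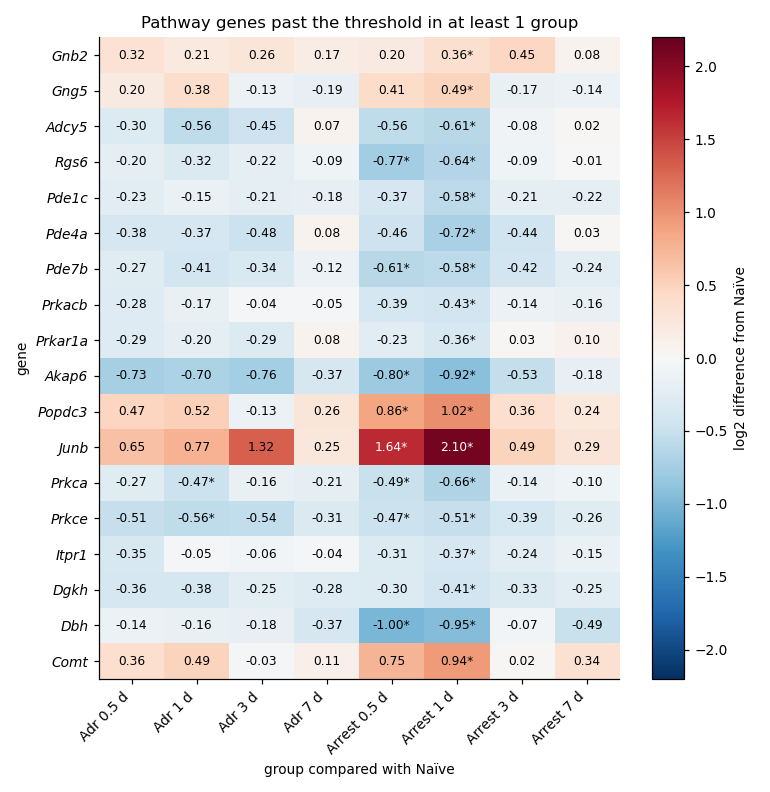
Log2 fold change against Naive of the 18 pathway genes called in at least 1 group, Adcy5 included, in the 4 Adr and 4 Arrest groups, as colour and number, with an asterisk where called. Calls lie in the groups at 0.5 and 1 day, and none at 3 or 7 days.

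Over the 37 libraries Adcy5 varied most like Stk39 (Spearman 0.875) and Mfn2 (0.855), the closest likeness found for any member. Adrb1 was most like Ttc3 (0.746), Adra1a like Filip1 (0.753), Adra1b like Garem1 (0.663), Adcy6 like Urgcp (0.608), Gnas like Serf2 (0.777), Grk5 like Tek (0.617) and Pde4d like Lrba (0.733). Among the members the closest pairs were Adra1a with Pde4d (0.606), Adcy5 with Pde4d (0.56) and Adcy5 with Adra1a (0.511), and Adra1a with Arrb1 ran opposite (-0.433). These correlations describe 37 libraries that share groups and tissue make-up, and they include the library that stood apart.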

How the data were processed

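RNA from left ventricle was sequenced by a provider on a NovaSeq instrument with paired ends. The authors checked reads with FastQC, aligned them with HISAT2 and tested genes with DESeq2. The genome build, annotation, counting tool and strand setting are not given in the sources used here. The deposited table holds FPKM values, the authors' unit, for 37 libraries, and 0 per-sample columns were left unused. The study left out 1 poor-quality Adr sample at 3 days, which the labels do not name, so all 4 were kept here. Whole fragments were recovered from the FPKM steps (100% of values whole within 0.1). Groups came from the labels. FPKM were rescaled by median ratios, but the factor was 1.0131 in every library, so this step left the libraries in the same proportion to each other. Genes with at least 0.5 FPKM in 4 libraries were kept, and log2(FPKM + 1) was fitted with limma 3.58.1 in R 4.3.3 (trended variance, all 9 groups, Benjamini-Hochberg within each comparison). The fit was tested on simulated data. Ratios were compared by two-sided exact permutation tests. All 9 members were described, and of the other pathway genes only some of those called were named. Members and lists were chosen with earlier results of these data known. Alternatives covered scaling, pseudocount, filter, gene length, sample weights, covariates, limma voom, a replicate block and leaving out libraries. Python 3.11.15, pandas 2.3.3 and numpy 2.4.6 were used.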

Additional observations from a re-analysis of the deposited data

Results flagged for a closer look

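In 4 of the 81 sets of member values by group (4.94%, where chance gives about 5%), 1 library lay far from the other 3 or 4 by Dixon's criterion. Adcy6 in the first Adr library at 1 day was 14.23 FPKM, with the others at 20.47 to 21.4. Adrb1 in the same library was 9.05 FPKM, with the others at 2.64 to 2.97. Adrb1 in the third Arrest library at 1 day was 1.693 FPKM, with the others at 4.36 to 4.72. Gnas in the third Adr library at 3 days was 3.933 FPKM, with the others at 5.43 to 5.54, and this is the library with the lowest mitochondrial share.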

How the results depend on the processing

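Over the alternatives, the count of members called against Naive was 0 in Adr and became 1 with sample quality weights and 1 with Adr 3-day replicate 3 and Naive replicate 4 left out, and 0 to 1 with single libraries left out. In Arrest it was 1 and became 2 with scaling by fragments counted, 0 with no filter, 0 with the length trend removed, 3 with sample quality weights, 0 with the description number as a covariate, 2 with only the compared groups fitted and 3 with both libraries left out, and 0 to 3 with single libraries left out. The description number has 67.5% of its variance between groups. The count at 7 against 0.5 days was 0 and became 3 with weights and 1 with both libraries left out (0 to 1 with single libraries left out). The test for any difference called 1 member, and 0 with no filter, 0 with the length trend removed, 3 with weights, 0 with the description number, 2 with limma voom and 0 to 1 with single libraries left out. Ratios called numbered 0 by the exact test, also with single libraries left out, where a single ratio could not pass at the smallest p these group sizes allow. The limma fit of the ratios called 4, and with libraries left out, chosen after the data were seen, 2 to 4, with 2 when both libraries were out. Arrest against Adr, both averages over the times and the difference in change between arms gave 0 under every alternative run. The cause of these changes was not tested.

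Same-numbered libraries did not deviate together (median r 0.00168 over 144 pairs), so the replicate numbers do not pair the samples. With the replicate block the test for any difference called 0 members and the limma fit of ratios still called 4. Arrest members called stayed at 1 and Adr at 0 with the block. No direction of a called value turned under any alternative (0 reversed). Precision is limited by 4 or 5 libraries per group.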
